A study of Mus musculus with 51 samples.

Results

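Mice were exposed to a dilute 0.01% (v/v) solution of 2-sec-butyl-4,5-dihydrothiazole (SBT), a volatile that male mice release in their urine, and the odorant receptors (ORs) of the activated olfactory sensory neurons were compared with those of mice given the diluent. The comparison holds 6 of the 51 libraries of the series, chosen by the odorant and by the control or experimental role in the labels, with 3 libraries labelled 0.01% SBT and 3 labelled as its controls. By the study's methods the animals were wild-type C57BL/6J juveniles of about weaning age, of both sexes and litter matched. Each was habituated to clean air and then exposed to the stimulus on a pad in a cassette, with 0.01% SBT in water for the exposed group and diluent alone for the controls. The labels name no animal, so the tests measure the spread between libraries. The tables hold 1117 OR genes and no other gene, so that the whole olfactory mucosa named by the labels could not be checked against markers of its neurons, supporting cells or immune cells.

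An olfactory sensory neuron expresses 1 OR gene out of a very large family, and an odor is read out by the set of receptors, and therefore of neurons, that it activates. Activated neurons phosphorylate ribosomal protein S6, and in pS6-IP-Seq an antibody against phosphorylated S6 pulls down ribosomes with the mRNA that they carry, so that the OR transcripts of activated neurons become a larger share of the captured RNA. Dilute stimuli are used in such assays because receptors differ in sensitivity, and a low dose tends to leave only the most sensitive ones. RefSeq gives mouse ORs a second name made of a family number and a member number, such as MOR165-3 for Olfr910. Members of a family have similar proteins and often lie side by side in the genome.

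The 6 libraries held 78076 to 137266 OR reads in the controls and 95511 to 160001 after 0.01% SBT. Of the 1117 ORs, 13 had no read in any of the 6 libraries, and 1072 had at least 10 reads over the 6 and were tested. Correlations of log2 normalized read counts between libraries were 0.89 to 0.92 within groups and 0.89 to 0.93 between groups, and no library stood apart. Replicates of the same group differed by 8.28 to 11.1 times the counting variance expected of 1 library sequenced repeatedly, so none was a repeat of another in its group.

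The 3 ORs with the lowest p belonged to a single receptor family. After 0.01% SBT, 5 ORs rose and none fell at an adjusted p under 0.05, and 3 of the 5 (Olfr910, Olfr912 and Olfr921) were members of the MOR165 family on chromosome 9. The other ORs that rose were Olfr196, of the MOR183 family on chromosome 16, and Olfr714, of the MOR263 family on chromosome 7, which is also known by its older name P4. These were 5 of 1072 tested ORs, or 0.466%. Their joint share of all OR reads was 0.26% ± 0.0237 (SD, n = 3) in the controls and 1.34% ± 0.357 (SD, n = 3) after 0.01% SBT. In bulk tissue, more activated cells of a kind and more captured RNA per cell cannot be told apart.

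Because short reads have to be assigned between near-identical receptors, the coding sequence of the genes that rose is shown first, in the GRCm38 build and on the coding strand. Olfr910 (chr9:38537849-38540820, plus strand) and Olfr912 (chr9:38580178-38586876, plus strand) encode proteins of 310 residues that differ at 11 of them, and their coding sequences of 930 bases differ at 37. The window of 150 coding bases in which they differ most, coding bases 631 to 780, is shown for the 7 tested MOR165 members. Among coding windows of this length, it is where reads tell Olfr910 and Olfr912 apart best. It lies in the coding exon of each, on the plus strand of chromosome 9, at chr9:38539527-38539676 in Olfr910, chr9:38581909-38582058 in Olfr912, chr9:38775887-38776036 in Olfr921, chr9:38499301-38499450 in Olfr907, chr9:38607097-38607246 in Olfr914, chr9:38594853-38595002 in Olfr913 and chr9:38756320-38756469 in Olfr920. Capitals in Olfr910 and Olfr912 mark the 15 bases at which these genes differ from each other. Capitals in the others mark bases that differ from Olfr910.
Olfr910: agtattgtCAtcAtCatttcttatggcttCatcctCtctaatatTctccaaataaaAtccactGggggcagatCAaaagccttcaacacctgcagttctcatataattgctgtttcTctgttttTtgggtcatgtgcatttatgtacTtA
Olfr912: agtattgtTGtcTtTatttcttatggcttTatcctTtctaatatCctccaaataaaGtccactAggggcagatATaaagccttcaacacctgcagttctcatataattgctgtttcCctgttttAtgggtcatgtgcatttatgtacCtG
Olfr921: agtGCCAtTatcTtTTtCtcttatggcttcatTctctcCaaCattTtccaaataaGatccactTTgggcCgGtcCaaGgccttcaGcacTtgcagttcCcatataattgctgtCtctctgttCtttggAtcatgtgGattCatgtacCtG
Olfr907: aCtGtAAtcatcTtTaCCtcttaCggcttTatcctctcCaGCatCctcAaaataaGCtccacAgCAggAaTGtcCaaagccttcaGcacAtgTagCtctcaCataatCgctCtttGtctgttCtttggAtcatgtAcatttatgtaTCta
Olfr914: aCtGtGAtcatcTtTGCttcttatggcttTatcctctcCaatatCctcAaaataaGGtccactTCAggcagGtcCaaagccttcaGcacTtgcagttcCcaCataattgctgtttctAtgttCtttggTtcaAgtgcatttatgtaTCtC
Olfr913: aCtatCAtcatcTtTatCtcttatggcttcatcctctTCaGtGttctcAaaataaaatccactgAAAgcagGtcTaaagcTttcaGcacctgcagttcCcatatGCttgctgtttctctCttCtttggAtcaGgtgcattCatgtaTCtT
Olfr920: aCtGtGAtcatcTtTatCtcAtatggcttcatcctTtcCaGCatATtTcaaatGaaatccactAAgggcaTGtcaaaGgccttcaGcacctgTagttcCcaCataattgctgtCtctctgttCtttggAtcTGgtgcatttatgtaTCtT

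In this window Olfr921 differed from Olfr910 at 30 bases, Olfr914 at 30, Olfr913 at 29, Olfr920 at 33 and Olfr907 at 37. Directly before it lies the longest run without any difference between Olfr910 and Olfr912, 272 bases at chr9:38539254-38539525 in Olfr910 and chr9:38581636-38581907 in Olfr912. A read from inside it belongs equally to both genes.
Olfr910 and Olfr912: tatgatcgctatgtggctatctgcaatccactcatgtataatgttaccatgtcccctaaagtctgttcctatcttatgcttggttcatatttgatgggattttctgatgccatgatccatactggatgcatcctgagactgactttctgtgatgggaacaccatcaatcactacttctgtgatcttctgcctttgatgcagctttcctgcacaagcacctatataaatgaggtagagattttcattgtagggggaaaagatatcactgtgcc

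Over all annotated exons, Olfr910 and Olfr912 had 345 stretches of 50 bases in common, and 17.8% of the stretches of Olfr910 and 6.17% of those of Olfr912 also occurred in another OR gene, against a median of 2.41% over all 1117 ORs. Olfr921 shared 0.164% of its stretches, and Olfr907 shared none. No stretch was common to Olfr921 and either Olfr910 or Olfr912. The authors' counting divided reads that fit several genes by an estimate, so the split between Olfr910 and Olfr912 is less certain than their sum.

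Olfr196 (chr16:59166647-59170454, minus strand) and its relative Olfr191 differed at only 2 of 120 bases in their most alike coding window, coding bases 64 to 183 of both, at chr16:59167959-59168078 and chr16:59086299-59086418 on the minus strand. This window is shown because reads from it can be told apart only at the bases in capitals.
Olfr196: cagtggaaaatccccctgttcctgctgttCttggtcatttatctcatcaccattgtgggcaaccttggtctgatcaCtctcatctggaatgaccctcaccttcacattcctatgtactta
Olfr191: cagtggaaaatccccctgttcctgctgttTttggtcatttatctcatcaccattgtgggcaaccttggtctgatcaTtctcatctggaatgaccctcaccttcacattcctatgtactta

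Olfr714 (chr7:107070981-107077802, plus strand) and its neighbor Olfr713, formerly P3, were identical over the 120 bases of their most alike window, coding bases 82 to 201 of Olfr714. In coding bases 832 to 951 of Olfr714 (chr7:107074661-107074780, against chr7:107036988-107037107 in Olfr713) they differed at 16 of 120, the highest number in any such window, and this window is shown with the differing bases in capitals.
Olfr714: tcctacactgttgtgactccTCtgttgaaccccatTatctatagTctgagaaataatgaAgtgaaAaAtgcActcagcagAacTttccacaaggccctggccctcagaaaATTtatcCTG
Olfr713: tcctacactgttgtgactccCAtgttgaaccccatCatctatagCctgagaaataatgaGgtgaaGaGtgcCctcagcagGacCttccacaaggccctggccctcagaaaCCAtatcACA

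Olfr714 and Olfr713 had 139 stretches of 50 bases in common, or 3.07% of those of Olfr714 shared with any OR, and Olfr196 shared 47 with Olfr191 and 41 with Olfr193, or 3.79% with any OR. The processed pseudogene Gm45023, on the opposite strand, overlaps the Olfr714 gene in the annotation. No annotated gene overlaps Olfr910, Olfr912, Olfr921 or Olfr196.

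Olfr910 had 88, 76 and 54 reads in the controls and 932, 313 and 491 after 0.01% SBT, which is 0.0696% ± 0.00574 (SD, n = 3) and 0.47% ± 0.14 (SD, n = 3) of all OR reads. Every exposed library lay well above every control. The log2 fold change was 2.79 ± 0.31 (SE), a 6.91-fold rise, with an edgeR quasi-likelihood adjusted p of 8.66e-05, the lowest of all tested ORs.

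Olfr912, which lies next to it, had 73, 32 and 64 reads in the controls and 656, 256 and 576 after 0.01% SBT. The groups did not overlap, although the control libraries varied more than for Olfr910. The log2 fold change was 2.97 ± 0.40 (SE), a 7.84-fold rise (edgeR adjusted p = 0.000565). Reads of Olfr910 per read of Olfr912 were 1.21, 2.38 and 0.844 in the controls and 1.42, 1.22 and 0.852 after 0.01% SBT, so that the ratio of the pair overlapped between the groups. As a sum that does not depend on how shared reads were divided, the pair took 0.125% ± 0.0229 (SD, n = 3) of OR reads in the controls and 0.893% ± 0.286 (SD, n = 3) after 0.01% SBT.

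Olfr921 (chr9:38773068-38779021, plus strand) had 70, 53 and 40 reads in the controls and 332, 146 and 181 after 0.01% SBT. The groups lay far apart, and its share varied little between controls, at 0.0516% ± 0.000922 (SD, n = 3) in the controls and 0.181% ± 0.0314 (SD, n = 3) after exposure. The log2 fold change of 1.84 ± 0.29 (SE) is a 3.57-fold rise (edgeR adjusted p = 0.00259). Olfr910 stood at 1.35 ± 0.0885 (SD, n = 3) reads per read of Olfr921 in the controls and at 2.55 ± 0.359 (SD, n = 3) after exposure.

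Olfr196 had 81, 60 and 44 reads in the controls and 228, 159 and 253 after 0.01% SBT. The third exposed library was the highest, and none overlapped the controls. The log2 fold change was 1.73 ± 0.32 (SE), a 3.31-fold rise (edgeR adjusted p = 0.0111).

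Olfr714 was the least abundant of the ORs that rose, with 34, 22 and 22 reads in the controls and 134, 76 and 77 after 0.01% SBT. As shares the exposed libraries lay close together, at 0.0802% ± 0.00378 (SD, n = 3) against 0.0249% ± 0.00316 (SD, n = 3). The log2 fold change was 1.71 ± 0.32 (SE), a 3.27-fold rise (edgeR adjusted p = 0.0111). Olfr910, Olfr912 and Olfr921 passed with each of the 6 libraries left out in turn. Olfr196 and Olfr714 each missed the threshold without control replicate 1 (edgeR adjusted p = 0.069 for both), without control replicate 2 (0.0844 for both) and without 0.01% SBT replicate 3 (0.0782 and 0.069), and Olfr714 also without 0.01% SBT replicate 1 (0.0678), which leaves 3 ORs without the first 3 of these libraries and 4 without the last.

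**Figure D1:**
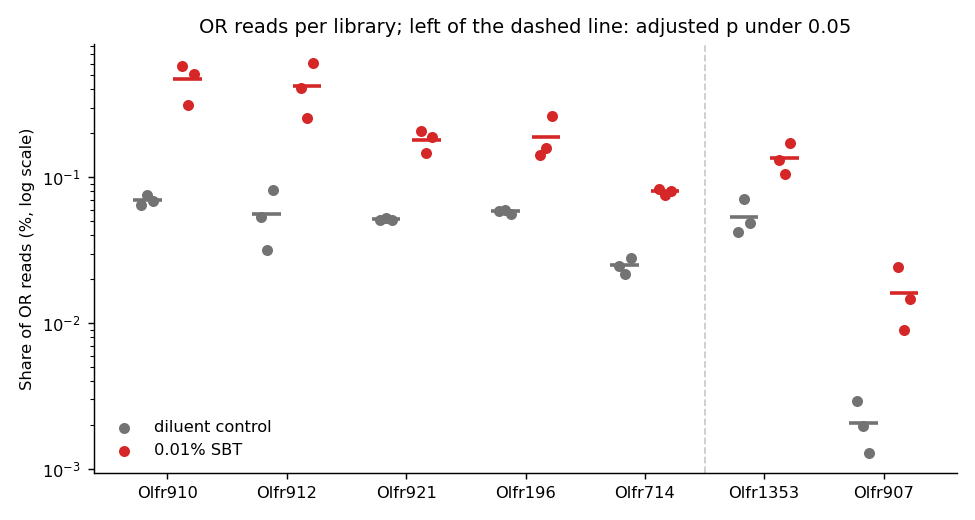
Share of all OR reads (percent, log scale) in each of the 3 control libraries (grey) and the 3 0.01% SBT libraries (red), with bars at the means, for the 5 ORs past the threshold and for Olfr1353 and Olfr907, which did not pass. These 7 ORs had the lowest p in the same libraries, and in none of them did the groups overlap, which goes with that choice.

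All exposed libraries lay above all controls, as shares of OR reads, in 33 of the 1072 tested ORs (3.08%), the 5 above included, and all lay below in 44 (4.1%). At an unadjusted p under 0.05, 22 ORs were higher and 7 lower. The median log2 fold change over all tested ORs was -0.00061, a value that the scaling over the ORs themselves holds near 0.

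Next in order of p came Olfr1353, a member of the MOR139 family on chromosome 10, with 58, 71 and 38 reads in the controls and 210, 105 and 165 after 0.01% SBT. The groups did not overlap, and the log2 fold change was 1.38 ± 0.31 (SE), with an edgeR adjusted p of 0.0747. It passed with DESeq2 and in edgeR's exact and likelihood ratio tests.

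Olfr907, another MOR165 member, followed with very few reads in the controls (4, 2 and 1) and 39, 9 and 14 after 0.01% SBT. The groups did not overlap, and the log2 fold change of 2.87 ± 0.79 (SE) was close to that of Olfr910 but carried a wider error (edgeR adjusted p = 0.315). It passed in edgeR's exact and likelihood ratio tests and not with DESeq2.

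Of the next ORs, Olfr60 had a log2 fold change of 0.88 ± 0.29 (SE, adjusted p = 0.932) and Olfr954 one of 1.71 ± 0.59 (SE, adjusted p = 0.999), and neither overlapped its controls. The tenth by p, Olfr487, was lower.

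No OR fell by edgeR's quasi-likelihood test or by DESeq2. The lower ORs with the lowest p were Olfr487 (log2 fold change -1.34), Olfr493 (-3.36), Olfr943 (-0.69), Olfr659 (-0.72) and Olfr916 (-0.87), each with an adjusted p of 0.999. Olfr487 had 95, 23 and 22 reads in the controls and 27, 19 and 11 after 0.01% SBT. The first control library was far above the others, and the exposed shares lay just below the other controls. Olfr493 had 10, 2 and 9 reads against 1, 1 and 0, near the lower limit of what these libraries could count.

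Precision followed the number of reads. Standard errors on the log2 scale had a median of 0.99 for the 120 ORs with under 10 mean reads per library, 0.35 for the 420 with 30 to 100 and 0.26 for the 77 most abundant. Of the 31 ORs with a log2 fold change above 1, 19 had under 10 mean reads, as did 18 of the 24 below -1. A change of the size seen in Olfr714 was therefore not detectable at this depth for the least abundant receptors.

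**Figure D2:**
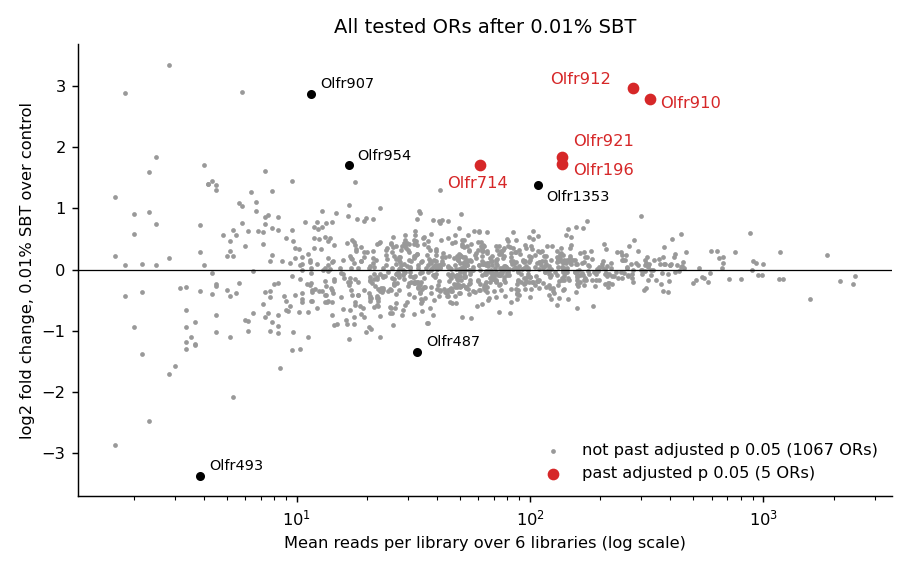
Log2 fold change after 0.01% SBT (vertical axis) against mean reads per library over the 6 libraries (horizontal axis, log scale) for the 1072 tested ORs. The 5 ORs past the threshold (red) have 50 or more mean reads and stand above the bulk of points, while the largest changes among ORs of few reads, to the left, did not pass. Black points are named ORs that did not pass.

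The MOR165 family was taken from the RefSeq names after the ORs that rose were known, and its counts are a description. The share passing over all tested ORs was 0.466%. The tables hold 8 members, all on chromosome 9, of which 7 were tested and 3 passed (Olfr910, Olfr912, Olfr921), and the median log2 fold change of the 7 was 1.84, against -0.00061 over all tested ORs. Olfr908 had no read in any of the 6 libraries. Olfr907 was described above. Olfr914 had a log2 fold change of 0.08 ± 0.47 (SE), Olfr920 one of -0.16 ± 0.55 (SE) and Olfr913 one of -0.31 ± 0.47 (SE), all with an adjusted p of 0.999. Their controls were uneven, and control replicate 3 was the highest for each, at 0.0922% for Olfr913, 0.0474% for Olfr914 and 0.0909% for Olfr920. In the other controls these shares were 0.0182% to 0.0321%. Leaving out single libraries turned the sign of each of the 3. Together the family took 0.306% ± 0.111 (SD, n = 3) of OR reads in the controls and 1.2% ± 0.368 (SD, n = 3) after 0.01% SBT.

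In protein sequence, Olfr912 is 96.5% identical to Olfr910, Olfr921 is 81.3%, Olfr914 is 80.0%, Olfr913 is 79.7%, Olfr920 is 77.4% and Olfr907 is 75.2%. The members that rose were the most alike to Olfr910, and Olfr907, whose log2 fold change was 2.87 without passing, was the least alike of the 7. Outside the family, Olfr904 and Olfr906 of MOR167 reach 77.7% and 76.8% identity, and their log2 fold changes were 0.19 and 0.19. Of the 52 other ORs at least 60% identical to Olfr910 or Olfr912, 50 were tested, 1 passed (Olfr921), and the median log2 fold change was -0.15. The highest were Olfr907 and Olfr921, and the lowest Olfr915 (-1.10) and Olfr985 (-1.01). At 50% identity 112 of 121 were tested and the same single OR passed. Among all tested ORs 0.466% passed, a share at which lists of these sizes need hold few or none.

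Members that rose did not lie in an unbroken row. Olfr913 and Olfr914 lie 5.88 kb and 18.2 kb from Olfr912, between it and Olfr921, which lies 186 kb away. Of the 45 other ORs within 500 kb of Olfr910 or Olfr912, 41 were tested and 1 passed (Olfr921), with a median log2 fold change of -0.03. The 36 tested neighbors that are not MOR165 members ranged from -1.10 to 1.71 around a median of -0.04, with none past the threshold. Within 100 kb, 11 of 12 were tested and none passed. With 0.466% passing over all ORs, sets of these sizes need hold none, so these counts say little about position. There the highest were Olfr907 and Olfr917 (1.39, with 2, 2 and 2 reads against 9, 9 and 1) and the lowest Olfr915 and Olfr916.

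**Figure D3:**
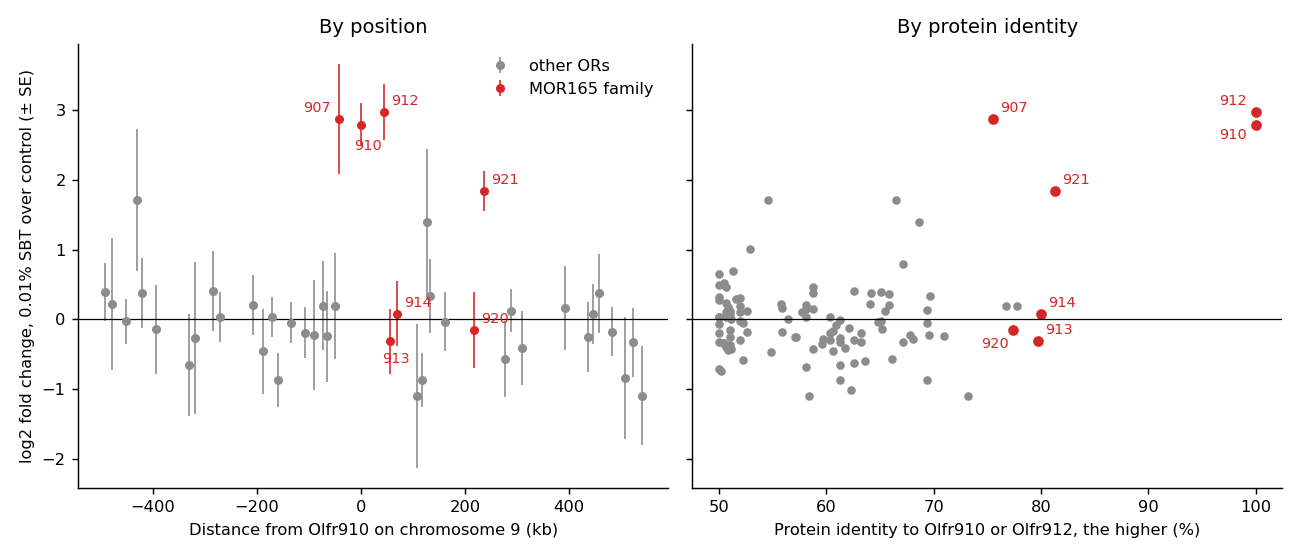
Log2 fold change after 0.01% SBT of tested ORs within 500 kb of Olfr910 or Olfr912, against distance from Olfr910 in kb, with standard errors (left), and of tested ORs at least 50% identical in protein to Olfr910 or Olfr912, against the higher identity in percent, where these genes stand at 100 by definition (right). MOR165 members are red and carry their Olfr number. Olfr907, Olfr910, Olfr912 and Olfr921 have the highest values, while Olfr913, Olfr914 and Olfr920 lie among their neighbors. Olfr888 of MOR162 (1.71 ± 1.02, SE) and, at right only, Olfr954 (1.71 ± 0.59, SE) lie just below Olfr921 and did not pass.

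The families of the remaining ORs that rose were described in the same way, also after the fact. Their counts stand beside a share of 0.466% passing over all tested ORs. In MOR183, all 8 members were tested and Olfr196 alone passed, with a median of 0.12. Its closest relatives, Olfr193 (89.0% identical in protein) and Olfr191 (88.0%), had log2 fold changes of 0.35 ± 0.52 (SE) and -0.01 ± 0.36 (SE), and Olfr186 had 0.22 ± 0.30 (SE). In MOR263, all 10 members were tested and Olfr714 alone passed, with a median of -0.07. Its neighbors on chromosome 7 are the receptors formerly called P3 and P2, both long used in studies of axon guidance. Olfr713 (P3), 93.7% identical to Olfr714, had 42, 55 and 45 reads in the controls and 113, 67 and 71 after 0.01% SBT, groups that did not overlap as shares, with a log2 fold change of 0.61 ± 0.32 (SE, adjusted p = 0.999). Olfr17 (P2), 73.0% identical, had a log2 fold change of 0.12 ± 0.27 (SE). How far reads shared by Olfr714 and Olfr713 move with these values was not tested. In MOR139, none of the 7 members passed the adjustment, and the lowest p values were those of Olfr1353 and of Olfr1352, 77.3% identical to it, whose reads were 171, 131 and 56 in the controls and 370, 161 and 159 after exposure, a log2 fold change of 0.80 ± 0.30 (SE, adjusted p = 0.999).

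Of the 5 ORs that the study singles out for differences between the sexes, Olfr910 and Olfr912 rose. The values of the others were -0.17 ± 0.30 (SE) for Olfr1295, -0.07 ± 0.34 (SE) for Olfr1437 and -0.49 ± 0.41 (SE) for Olfr235, on the log2 scale.

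Among 9 ORs studied at length elsewhere, with known ligands or tagged alleles, 8 were tested and none passed, with a median log2 fold change of 0.02, and with 0.466% passing over all ORs none is near the background. The extremes were Olfr1440 (MOR215-1, a receptor for musk odors) at 0.50 and Olfr545 (S50) at 0.37, and Olfr73 (mOR-EG, a eugenol receptor) at -0.78 and Olfr2 (I7, an octanal receptor) at -0.62. Olfr151 (M71) had 6 reads in all, all of them after exposure, and was not tested.

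Class I ORs, the more ancient of the 2 classes, lie in 1 cluster on chromosome 7. Of 127 there, 122 were tested and none passed, with 61 above and 61 below 0 and a median of -0.0015. Over all ORs 0.466% passed, a share at which a list of this size need hold none. The highest were Olfr574 (1.27) and Olfr632 (0.95) and the lowest Olfr589 (-1.70) and Olfr243 (-1.14), each with an adjusted p of 0.999.

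The 5 ORs with the largest shares in the controls did not pass either. Olfr140 held 2.52% ± 1.1 (SD, n = 3) of OR reads in the controls and 2.28% ± 0.747 (SD, n = 3) after 0.01% SBT, and Olfr743 2.38% ± 0.605 (SD, n = 3) and 1.97% ± 0.601 (SD, n = 3). Olfr1384, Olfr740 and Olfr536 held 1.47% to 2.09% of the control reads, and Olfr740 was the only one of the 5 whose groups did not overlap, at 1.65% ± 0.407 (SD, n = 3) and 1.16% ± 0.105 (SD, n = 3), with an adjusted p of 0.999. These are shares of reads that are not divided by gene length. Per kilobase of exon the order was Olfr743, Olfr140, Olfr1384, Olfr740 and Olfr536.

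The response at 0.01% was then set beside 1% and 100% SBT, which were tested against 3 diluent controls of their own. At 1%, 9 of 1043 tested ORs rose (0.863%) and 4 of the 5 ORs that rose at 0.01% were among them. At 100%, 112 of 1050 rose (10.7%), 8 fell, and 3 of the 5 were among those that rose (Olfr910, Olfr921 and Olfr196). The 1% and 100% comparisons share their controls. They share no library with the 0.01% comparison, so dose cannot be told apart from experiment in the differences below.

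Olfr910 had log2 fold changes of 2.79 ± 0.31 (SE) at 0.01%, 2.88 ± 0.45 (SE) at 1% and 1.60 ± 0.37 (SE) at 100%. The response at 1% differed from that at 0.01% by 0.11 (95% interval -0.93 to 1.14), and that at 100% by -1.14 (95% interval -2.17 to -0.10, adjusted p = 0.263). Olfr912 had 2.97 ± 0.40 (SE), 2.63 ± 0.44 (SE) and 1.19 ± 0.39 (SE). Its response at 100% differed from that at 0.01% by -1.73 (95% interval -2.92 to -0.54), which did not pass the adjustment (edgeR adjusted p = 0.0808), and at 1% by -0.32 (95% interval -1.49 to 0.85). For both genes the value at the highest dose was the lowest of the doses, at shares of 0.207% ± 0.0390 (SD, n = 3) for Olfr910 and 0.139% ± 0.0315 (SD, n = 3) for Olfr912.

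Olfr921 was nearly level, with 1.84 ± 0.29 (SE), 2.26 ± 0.42 (SE) and 1.66 ± 0.36 (SE), and differences from 0.01% of 0.45 (95% interval -0.52 to 1.42) at 1% and -0.14 (95% interval -1.11 to 0.83) at 100%. The intervals leave room for differences of over 1 on the log2 scale in Olfr921 and in Olfr910. Olfr196 had its highest value at 1%, with 1.73 ± 0.32 (SE), 3.63 ± 0.61 (SE) and 2.05 ± 0.55 (SE). The controls of 1% and 100% were uneven, with 7, 80 and 14 reads of Olfr196, and 1% was not tested against 100%. The difference between 1% and 0.01% was 1.92 (95% interval 0.62 to 3.22, adjusted p = 0.67).

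Olfr714 was the exception among the ORs that rose at 0.01%. It had 9, 4 and 40 reads after 1% SBT and 2, 25 and 25 after 100%, against 9, 12 and 17 in their controls, and log2 fold changes of 0.02 ± 0.84 (SE) and -0.16 ± 0.82 (SE). The difference from 0.01% was -1.64 (95% interval -3.68 to 0.39, adjusted p = 0.961) at 1% and -1.82 (95% interval -3.86 to 0.22, adjusted p = 0.42) at 100%, and both intervals include 0.

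The remaining ORs that rose at 1% were Olfr914, Olfr1353, Olfr186, Olfr1085 and Olfr376, of which the last 2 are named after their values were seen. Olfr914 is the MOR165 member beside Olfr912, and it had 93, 164 and 72 reads after 1% SBT against 2, 15 and 3 in the controls there. Its log2 fold change was 3.84 ± 0.60 (SE) at 1% and 0.08 ± 0.47 (SE) at 0.01%, a difference of 3.79 (95% interval 2.17 to 5.42, adjusted p = 0.0687), which passed in the likelihood ratio test and not in edgeR's quasi-likelihood test. At 100% the difference from 0.01% was 2.36 (95% interval 0.74 to 3.99, adjusted p = 0.0818). Of the other MOR165 members, Olfr913 rose at 100% by 1.69 ± 0.43 (SE, adjusted p = 0.018) and Olfr920 had 2.16 ± 0.71 (SE, adjusted p = 0.0716) there. Olfr1353 had 1.38 ± 0.31 (SE) at 0.01%, 2.59 ± 0.46 (SE) at 1% and 1.52 ± 0.41 (SE) at 100%. Olfr186, a relative of Olfr196, had 0.22 ± 0.30 (SE) at 0.01% and 2.13 ± 0.44 (SE) at 1%. Olfr1085 had 0.92 ± 0.42 (SE) and 3.55 ± 0.73 (SE), and Olfr376 0.41 ± 0.26 (SE) and 1.87 ± 0.39 (SE). In 4 of these 5 ORs the value at 0.01% was under 1 on the log2 scale, and in Olfr1353 it was 1.38.

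**Figure D4:**
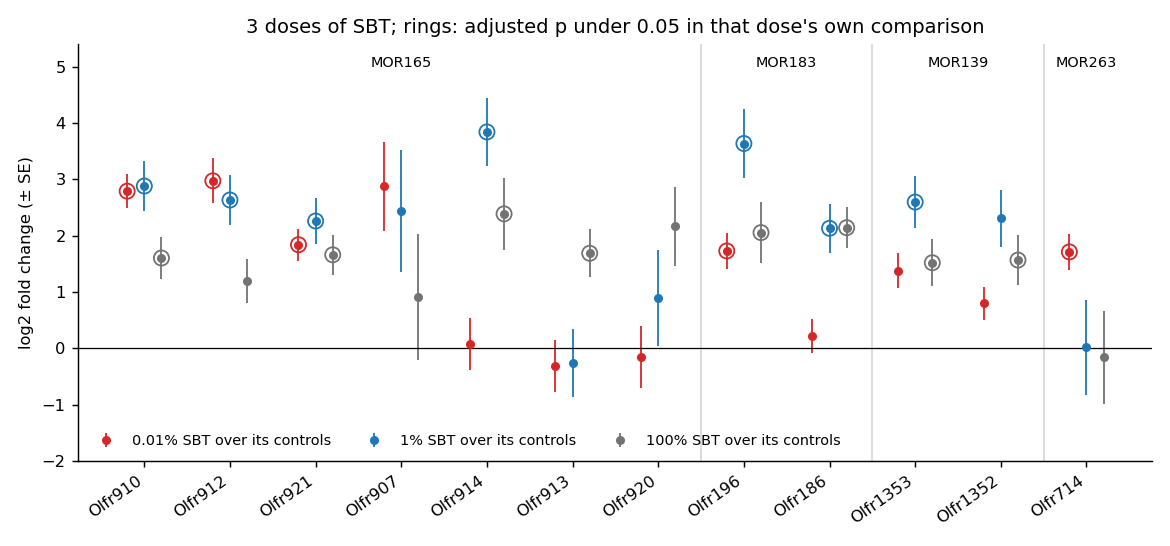
Log2 fold change against own controls, with standard errors, at 0.01% (red), 1% (blue) and 100% SBT (grey) for members of 4 receptor families, with rings around values past the threshold in that dose's own comparison. Olfr910, Olfr912 and Olfr921 are high at 0.01% and 1%, the 1% points of Olfr914, Olfr186 and Olfr196 lie above their 0.01% points, and Olfr714 lies near 0 at 1% and 100%. Of these 4 ORs none passed the test of the difference between 1% and 0.01%, and only Olfr186 passed that between 100% and 0.01%.

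In a test of the difference itself, no OR passed between 1% and 0.01% (0 of 1084, or 0.0%, by edgeR's quasi-likelihood test, with 51 at an unadjusted p under 0.05 and 1, Olfr914, by the likelihood ratio test). The 1% libraries held 41426 to 66366 OR reads and their controls 27301 to 57154, fewer than any library of the 0.01% comparison. A count of 0 is therefore no measure of how alike the doses are. In 1 of the 1% libraries a single OR, Olfr545, held 14.4% of the reads (95% Wilson interval 14.1% to 14.7%, counting error only), and the count stayed at 0 without that library. Between 100% and 0.01%, 67 of 1084 ORs passed (6.18%), all with the larger response at 100%. Scaling by library totals alone gave 36 ORs with the larger response at 100% and 6 with the smaller, and the median difference over all ORs moved from -0.01 to -0.42. None of the 5 ORs that rose at 0.01% was among the 67, whose median log2 fold change at 0.01% was -0.08. The ORs with the lowest p at 100% were Olfr506, Olfr96, Olfr30, Olfr11 and Olfr20. They had log2 fold changes of 2.17 to 4.77 at 100% and of -0.23 to 0.16 at 0.01%.

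The response to 0.01% SBT was also tested against the mean response to 7 other odors of the series, each taken over its own controls, which are no controls of 0.01% SBT. These were CPD, 10 mM and 100 μM MTMT, beta-caryophyllene, (E)-beta-farnesene, 2,5-DMP and DHB, with the MTMT doses counted as separate odors. 2-heptanone was not analysed here. Of 1102 ORs, 3 responded more to 0.01% SBT (0.272%), and all were MOR165 members. The difference was 3.16 ± 0.40 (SE, adjusted p = 1.95e-07) for Olfr912, 2.93 ± 0.47 (SE, adjusted p = 4.48e-05) for Olfr910 and 1.70 ± 0.36 (SE, adjusted p = 0.00842) for Olfr921. Without control replicate 1 or without control replicate 2 the count was 2, and Olfr921 was lost.

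For Olfr196 the difference was 1.56 ± 0.45 (SE, adjusted p = 0.228), for Olfr907 3.38 ± 0.97 (SE, adjusted p = 0.228) and for Olfr714 1.95 ± 0.67 (SE, adjusted p = 0.979), so these were not shown to differ from the other odors. The log2 fold change of Olfr910 across the 7 odors ranged from -0.52 to 0.16, that of Olfr912 from -0.40 to -0.11, that of Olfr921 from -0.17 to 0.39, that of Olfr196 from -0.17 to 0.39 and that of Olfr714 from -0.88 to 1.07, the last in DHB. None of the 5 passed in any of these comparisons, which called 0.0% of tested ORs for CPD, 0.0% for 10 mM MTMT, 0.0% for beta-caryophyllene, 1.77% for (E)-beta-farnesene, 0.841% for 2,5-DMP, 0.281% for 100 μM MTMT and 0.564% for DHB. Olfr1353, just short of the threshold at 0.01% SBT, rose after DHB, another volatile of male urine, by a log2 fold change of 2.56 ± 0.29 (SE, edgeR adjusted p = 8.12e-06).

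**Figure D5:**
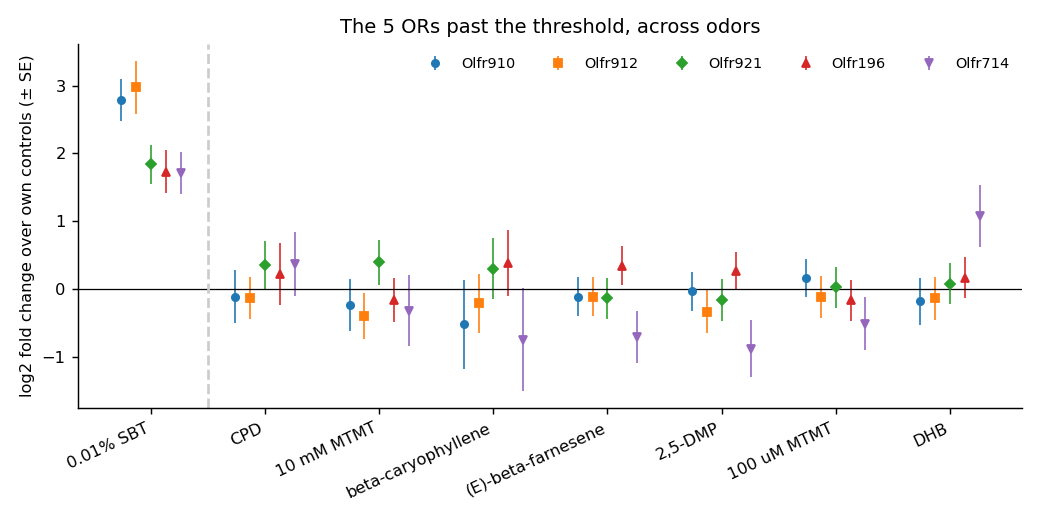
Log2 fold change against own controls, with standard errors, of the 5 ORs that rose after 0.01% SBT, at left, and after each of 7 other odors. The values for Olfr910, Olfr912 and Olfr921 after the other odors lie between -0.52 and 0.39, and those of Olfr714 are the most scattered, from -0.88 to 1.07.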

How the data were processed

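RNA captured by pS6-IP-Seq from whole olfactory mucosa was sequenced by the authors as short single reads, aligned to GRCm38 with STAR (reads with a limited number of places kept) and counted with RSEM, which divides multi-mapped reads by an estimate. The deposited expected counts are whole numbers for 1117 ORs. The authors' columns of fold changes, levels, test statistics and p-values from edgeR were not used, nor were 6 count columns that match no sample described here. The labels give the dose as a code, read as 0.01% SBT with the study's methods.

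Reads were tested in R 4.3.3 with edgeR 4.0.16 (quasi-likelihood, unpaired, TMM factors over the ORs, at least 10 reads over the libraries in the fit, Benjamini-Hochberg over all ORs tested, threshold 0.05), and the script was tested on simulated counts. In the 0.01% comparison TMM factors were 0.94 to 1.03 and the common biological coefficient of variation 0.316, against 0.401 in the fit of the doses. Standard errors are the log2 fold change over the square root of F. Each dose and odor was tested against its own controls, doses were compared in 1 fit of 15 libraries, and other odors in 1 fit of all 51. DESeq2 1.42.0, the exact and likelihood ratio tests, other scalings and filters, a replicate block and single libraries left out were alternatives.

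Positions come from GENCODE M21 (all 1117 ORs matched by Ensembl ID), families from RefSeq, and protein identity from translated coding sequences aligned with Biopython. Named ORs were those past the threshold, the next 5 by p, the 5 lower ones with the lowest p, 5 ORs of the study, the 5 most abundant, neighbors within 100 kb of Olfr910 or Olfr912, the 5 with the lowest p at 1% and at 100% and the extremes of each list. The comparison, the members and the lists were chosen with earlier results of these data known, and families and their other members after the values were seen.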

Additional observations from a re-analysis of the deposited data

Results flagged for a closer look

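The response to SBT differed between the 100% and the 0.01% dose for 8 of the named ORs. The test was of the difference between the doses in 1 fit of 15 libraries (edgeR quasi-likelihood, adjusted p under 0.05). Of all 1084 ORs in that fit, 67 passed (6.18%). On the log2 scale the response at 100% exceeded that at 0.01% by 4.70 for Olfr506, by 4.04 for Olfr20, by 3.27 for Olfr11, by 3.11 for Olfr96, by 3.07 for Olfr57, by 2.17 for Olfr376, by 2.13 for Olfr30 and by 1.96 for Olfr186. Olfr506, Olfr96, Olfr30, Olfr11 and Olfr20 were named because they had the lowest p at 100%, and their differences are a description of that choice. Olfr186 and Olfr57 were named as relatives of Olfr196 and Olfr1353, and Olfr376 because it rose at 1%. The 1% and 100% groups share their controls, so the difference of Olfr376 is not independent of that choice either. The 0.01% and 100% groups and their controls share no library, so dose cannot be told apart from experiment. With 3 libraries a group, single libraries were not tested as outliers.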

How the results depend on the processing

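The count of 5 ORs after 0.01% SBT was 4 to 7 with other tests, scalings, filters or all 51 libraries in the fit, and 3 to 5 with single libraries left out, as given above. In all 15 alternatives Olfr910, Olfr912 and Olfr921 passed, with log2 fold changes of 2.63 to 3.03, 2.58 to 3.35 and 1.75 to 1.99. Olfr714 also missed the threshold in the fit of all 51 libraries (adjusted p = 1.0). Same-numbered control and 0.01% SBT libraries had deviations from their group means correlated at 0.07, 0.11 and 0.04, and differently numbered ones at -0.083 to 0.017. Every library correlated best with its own number. By the study's methods the mice were litter matched, but no label says that a number marks a litter. The correlations are thus only a hint, and the numbers were not taken as pairs. With the replicate number as a block the count was 6, with Olfr1353 added (adjusted p = 0.000613). For the doses the block called 1 OR, Olfr914, between 1% and 0.01%, as did the likelihood ratio test, and 83 between 100% and 0.01%. Library totals called 42 there and the likelihood ratio test 99. Leaving out each 0.01% SBT or control library, or the first 1% library, gave 47 to 74 between 100% and 0.01% and 0 between 1% and 0.01%. The other 1% and 100% libraries and their controls were not left out. Leaving out each 0.01% SBT or control library gave 2 to 3 ORs against the other odors, where the block called 3. The fit without the 1% library rich in Olfr545 was chosen after seeing the data. Values with single libraries left out were looked at for only part of the named ORs. Among these, the sign turned in 9 ORs that had not passed, none of which then passed. Their log2 fold changes ran from -0.21 to 0.56 for Olfr914, -0.67 to 0.52 for Olfr913, -0.53 to 0.68 for Olfr920, -0.36 to 0.083 for Olfr1295, -0.24 to 0.17 for Olfr1437, -0.044 to 0.33 for Olfr17, -0.21 to 0.25 for Olfr191, -0.083 to 0.69 for Olfr193 and -0.027 to 1.24 for Olfr545. The cause was not tested. Depth limits the ORs of few reads, whose standard errors were the largest.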
